A study of Mus musculus with 16 samples.

Results

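Gene expression was compared between dendritic cells grown from the marrow of ovariectomized Ex3a mice and of ovariectomized ERKO mice, both kept in vehicle. The comparison used every gene row of the deposited table of FPKM (fragments per kilobase, scaled to the depth of the library), in 4 of its 16 libraries. Of 24001 gene rows, 11346 were tested, those at 1 FPKM or more in at least 2 of the 16 libraries. All mice were of the NZM2410 strain, an inbred strain that develops lupus nephritis. Marrow from femurs and tibias was cultured for 7 days with 20 ng/ml of the cytokine GM-CSF and IL-4 at 10 ng/ml, and the harvested cells then had 24 h of vehicle or of agonists of the endosomal receptors TLR7 (loxoribine) and TLR9 (CpG DNA).

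The Ex3a OVX group is labelled as the ERα-null arm by its source label and the ERKO OVX group as the arm with a truncated receptor, ERα short. Both arms had been ovariectomized at 4 to 8 weeks of age and carried a 0.25 mg, 90-day 17β-estradiol pellet, so neither had intact ovaries and by their labels both lacked the full-length receptor. Genotype labels and descriptions give the reverse for these 4 libraries, Esr1(tm1Ksk) with ERα short for Ex3a and Esr1(tm4.2Ksk) with no ERα activity for ERKO. For the agonist libraries of both arms the genotype labels give 1 allele, Esr1(tm1Ksk). Values summed per gene cannot tell these alleles apart, so the groups are called Ex3a OVX and ERKO OVX here and which of them is null is not settled. The other libraries used below are the Ex3a OVX and ERKO OVX pairs with agonists, and the vehicle pairs of unoperated KO (ERα short by its source label, null by its genotype label) and WT mice. Triplicates are mentioned in the labels, but each group has 2 libraries in the table. Whether these stem from different mice or cultures is not said, and the spread that p-values rest on may therefore be technical.

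Estrogen receptor α, encoded by Esr1, is a nuclear receptor that binds estradiol and then acts on DNA directly or through other transcription factors. In cultures of marrow with GM-CSF it is known to take part in the differentiation of dendritic cells, with the transcription factor Irf4 among the factors involved. GM-CSF cultures are also known to hold macrophages and granulocytes beside dendritic cells, which share much of their expression.

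The depth estimated from the steps between low values was 22.7 to 23.4 M fragments in the 4 libraries. Sums of FPKM were 657791 and 659985 in Ex3a OVX and 649892 and 652417 in ERKO OVX. Median differences between the libraries of a pair were 2.15% in Ex3a OVX and 2.19% in ERKO OVX, about what sampling of fragments gives, so each pair counts as 1 sample. The change of a gene is the difference of log2(FPKM + 1), Ex3a OVX minus ERKO OVX, which understates the change of low genes. It is given ± the standard error of the limma fit. That error comes from the spread of the 8 unoperated libraries, because the averaged pairs leave none of their own. Adjusted p-values are from limma with Benjamini and Hochberg's method over all 11346 genes.

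Esr1 itself (chromosome 10, 4611593 to 5005614, GRCm38) was barely expressed. It had 0.347 and 0.283 FPKM in Ex3a OVX, against 1.02 and 0.982 FPKM in ERKO OVX. The groups did not overlap, as in 82.2% of all genes tested. Esr1 was lower in Ex3a OVX, with a change of -0.61 ± 0.11 (limma adjusted p = 0.00111). It did not pass limma's test against 1.5-fold. Unoperated KO libraries had 2.47 and 2.57 FPKM and WT libraries 1.21 and 1.38 FPKM, both above the ovariectomized groups. These levels do not check the allele of a library. At an adjusted p under 0.05, 29.3% of all genes tested were higher and 26.1% lower in Ex3a OVX. Of 8 tested genes of the Esr1 stretch of chromosome 10, Esr1 included, 4 were higher and 3 lower. The widest change there was that of Plekhg1, with 8.38 and 8.45 FPKM in Ex3a OVX, against 3.5 and 3.3 FPKM in ERKO OVX (1.10 ± 0.05). Mthfd1l, a mitochondrial folate enzyme, had 4.07 and 3.79 FPKM in Ex3a OVX, against 7.35 and 7.9 FPKM in ERKO OVX (-0.81 ± 0.09).

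Ex3a OVX and ERKO OVX cells differed widely. At an adjusted p under 0.05, 3320 genes (29.3%) were higher and 2959 (26.1%) lower in Ex3a OVX, while the median absolute change over all genes was only 0.185 log2 units. The shares of 29.3% and 26.1% are the background for every count of list members given here. Changes of over 2-fold that passed the test were seen in 278 genes higher (2.45%) and 250 lower (2.2%), and in all of these the Ex3a OVX and ERKO OVX libraries did not overlap. Over all genes tested 82.2% did not overlap, and the choice of wide changes fixes the rest, so non-overlap sets no gene apart here. With a pseudocount of 0.1 in place of 1 these counts were 421 and 419, and with 5 they were 156 and 135. Over 4-fold, 44 were higher and 34 lower. In limma's treat test against 1.5-fold, 435 were higher and 372 lower.

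**Figure D1:**
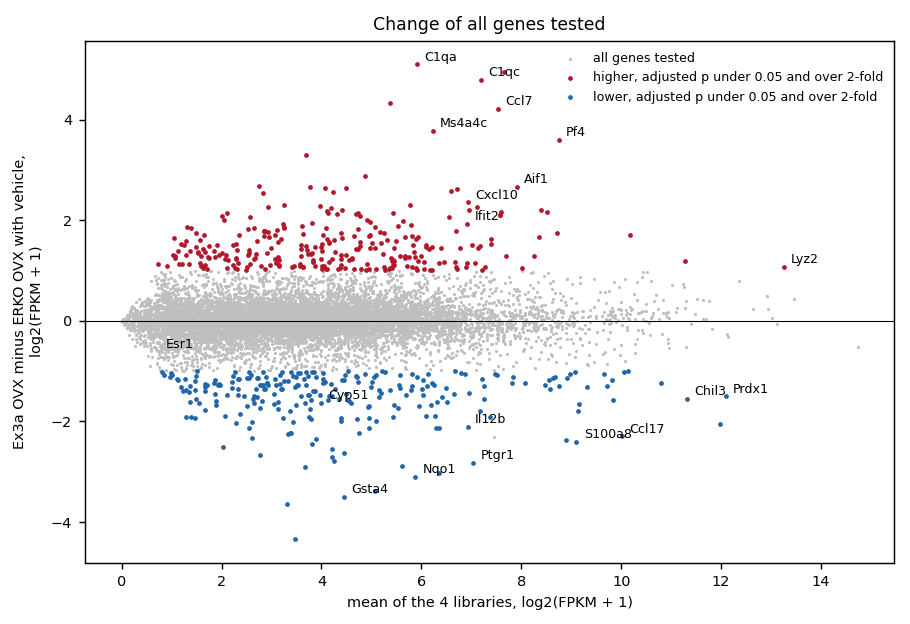
Change of each of the 11346 genes tested, Ex3a OVX minus ERKO OVX with vehicle, on the log2(FPKM + 1) scale (vertical axis), against the mean level of the 4 libraries on the same scale (horizontal axis). Red points are the 278 genes that were higher and blue points the 250 that were lower by over 2-fold with an adjusted p under 0.05; the C1q genes and Ccl7 stand at the top and Gsta4 and Nqo1 near the bottom.

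Some markers of the labelled cell type were strong in all 4 libraries, and others were low or at 0. The MHC class II chain H2-Aa had 2873 and 2864 FPKM in Ex3a OVX, against 2198 and 2184 FPKM in ERKO OVX, and the invariant chain Cd74 had 8403 and 8403 FPKM in Ex3a OVX, against 7198 and 7177 FPKM in ERKO OVX. Itgax, which encodes the dendritic cell integrin CD11c, had 86.3 and 86 FPKM in Ex3a OVX, against 155 and 152 FPKM in ERKO OVX, a change of -0.83 ± 0.04. The dendritic transcription factors split, with Irf8 higher (86.5 and 86.3 FPKM in Ex3a OVX and 49.6 and 50 FPKM in ERKO OVX) and Irf4 lower (8.63 and 8.73 FPKM in Ex3a OVX and 26.7 and 26 FPKM in ERKO OVX). Of 16 tested dendritic cell markers, 7 were higher, 7 lower and 2 not called. Xcr1, a receptor of cross-presenting dendritic cells, was at 0.402 and 0.319 FPKM in Ex3a OVX and 0.475 and 0.444 FPKM in ERKO OVX, under the filter. Clec9a, also under the filter, was at 0.0965 and 0.103 FPKM in Ex3a OVX and 0.0144 and 0.0279 FPKM in ERKO OVX. Cd209a was listed at 0 in the 4 libraries.

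Macrophage markers stood higher in Ex3a OVX. Of 17 tested, 15 were higher, 13 of them by over 2-fold, 1 (the endotoxin coreceptor Cd14) was lower and 1 (Cd68) was not called. The list holds the C1q genes, Pf4, Fcgr1 and Trem2, which are also described below. Its median change was 1.80, against 0.016 over all genes. Their levels summed to 18200 FPKM in each Ex3a OVX library and 9310 and 9280 FPKM in the ERKO OVX libraries. The lysozyme gene Lyz2 made up most of that sum, with 13256 and 13274 FPKM in Ex3a OVX, against 6319.8 and 6309 FPKM in ERKO OVX. The general macrophage genes Cd68 (849 and 854 FPKM in Ex3a OVX and 837 and 839.7 FPKM in ERKO OVX) and Csf1r (529 and 525 FPKM in Ex3a OVX and 406 and 404 FPKM in ERKO OVX) were high in both groups and had changes of only 0.02 and 0.38. No macrophage marker tested was at 0 in any of the 4 libraries, but Cd163, under the filter, was listed at 0 in each of them. In bulk RNA, more cells of a type and more RNA of a gene per cell cannot be told apart.

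Granulocyte markers stood the other way. Of 17 tested, 10 were lower and 4 higher in Ex3a OVX (6 lower and 3 higher with a pseudocount of 0.1), with summed levels of 2340 and 2330 FPKM in Ex3a OVX and 6440 FPKM in each ERKO OVX library. The chitinase-like protein Chil3, also an IL-4 response gene, made up most of the sum. The neutrophil granule genes themselves were low or mixed. Elane was at 1.06 and 0.986 FPKM in Ex3a OVX and 1.59 and 0.977 FPKM in ERKO OVX and Ltf at 2.11 and 2.05 FPKM in Ex3a OVX and 1.27 and 1.24 FPKM in ERKO OVX, while Retnlg and Stfa1 were listed at 0 in the 4 libraries. Basophil and mast cell markers were low and had 8 of 9 lower, summing to 65.3 and 66.6 FPKM in Ex3a OVX and 144 and 143 FPKM in ERKO OVX. Among these the basophil protease Mcpt8 had 18.5 and 19 FPKM in Ex3a OVX, against 52.6 and 52.5 FPKM in ERKO OVX, and the mast cell tryptases Tpsb2 and Tpsab1 were listed at 0. All 3 eosinophil markers tested were lower, with Ear2 at 7.23 and 11.3 FPKM in Ex3a OVX and 22.1 and 20.8 FPKM in ERKO OVX. T and NK cell markers, granzymes A and B among them, had 8 of 11 higher and 3 lower, summing to 151 and 154 FPKM in Ex3a OVX and 135 and 136 FPKM in ERKO OVX. The T cell receptor subunit Cd3g was at 3.55 and 3.47 FPKM in Ex3a OVX and 0.651 and 0.724 FPKM in ERKO OVX. Of the remaining marker lists, monocyte markers had 5 of 10 higher and 4 lower, osteoclast markers 4 of 9 higher and 5 lower, and plasmacytoid dendritic cell markers 2 of 7 higher and 1 lower, with Siglech listed at 0. Stromal and endothelial markers had 3 of 6 higher and 2 lower, B cell markers 1 of 2 higher and 0 lower, and both erythroid markers tested, Car2 and Tfrc, were lower. Neither is limited to erythroid cells, and the globin gene Hbb-bs was at 0 and 0 FPKM in Ex3a OVX and 0.0019 and 0 FPKM in ERKO OVX. The part of such cells in the changes below was not tested.

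**Figure D2:**
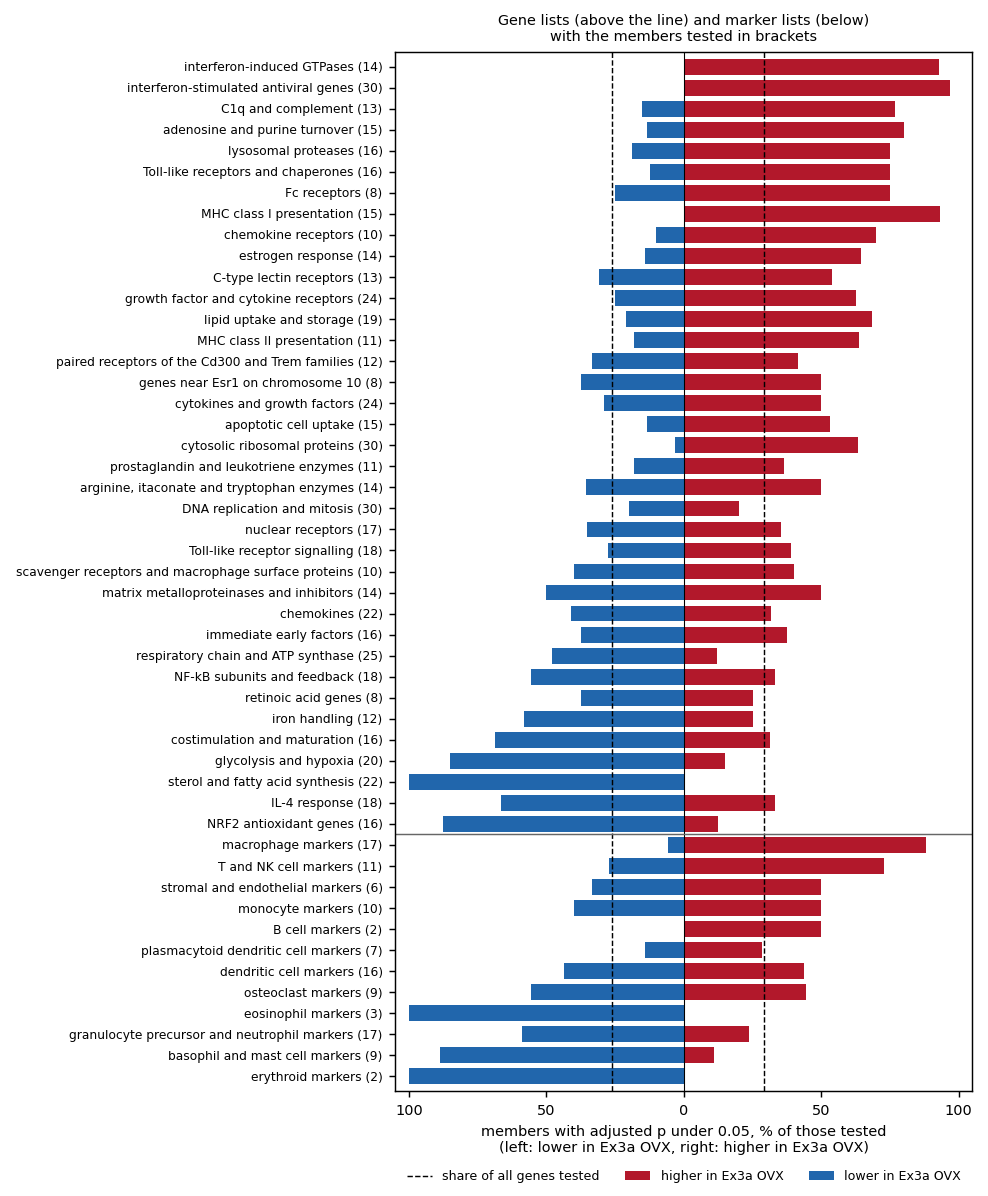
For 37 gene lists and 12 cell type marker lists, the percent of tested members that were higher (red, to the right) or lower (blue, to the left) in Ex3a OVX at an adjusted p under 0.05; dashed lines mark the shares over all genes tested, 29.3% higher and 26.1% lower. Interferon lists reach far to the right and the sterol, NRF2 and glycolysis lists far to the left.

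The widest changes of all were in the 3 genes of C1q, the complement component that opens the classical pathway and also coats dying cells for uptake. C1qa had 115 and 117 FPKM in Ex3a OVX, against 2.66 and 2.2 FPKM in ERKO OVX (5.10 ± 0.06, limma adjusted p = 3.53e-11). C1qb had 391 and 387 FPKM in Ex3a OVX, against 11.7 and 11.6 FPKM in ERKO OVX (4.94 ± 0.10), and C1qc had 282 and 284 FPKM in Ex3a OVX, against 9.38 and 9.17 FPKM in ERKO OVX (4.79 ± 0.08). Mean C1qa was 47.8 times as high in Ex3a OVX as in ERKO OVX in FPKM. The genes sit side by side on chromosome 4 (136880129 to 136898803, GRCm38). The next tested genes on either side had small changes, with Kdm1a at 16.8 and 15.1 FPKM in Ex3a OVX and 16.6 and 15.2 FPKM in ERKO OVX (0.00) and Zbtb40 at 2.7 and 2.82 FPKM in Ex3a OVX and 3.66 and 3.71 FPKM in ERKO OVX (-0.32). Macrophage markers moved with the C1q genes, as given above, and their part in this difference was not tested. The RefSeq promoter windows of C1qb (chr4:136886201-136886450, minus strand) and C1qc (chr4:136892915-136893164, minus strand) are shown as the 250 bases before each start, since these neighbours moved together. Both are from GRCm38.p6 and are printed with no capitals. The C1qb window holds a match to the antioxidant motif searched below, on the other strand, and the printed bases of C1qc hold no match to any motif searched.
C1qb: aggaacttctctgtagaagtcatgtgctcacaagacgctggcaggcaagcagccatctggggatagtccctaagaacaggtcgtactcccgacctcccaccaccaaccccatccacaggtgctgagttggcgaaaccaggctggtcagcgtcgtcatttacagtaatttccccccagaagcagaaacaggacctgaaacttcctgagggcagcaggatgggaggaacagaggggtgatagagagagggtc
C1qc: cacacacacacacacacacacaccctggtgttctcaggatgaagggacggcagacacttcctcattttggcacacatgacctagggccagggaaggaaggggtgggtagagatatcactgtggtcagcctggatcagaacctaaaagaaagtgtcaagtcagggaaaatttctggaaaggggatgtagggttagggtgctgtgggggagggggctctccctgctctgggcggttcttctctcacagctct

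Other complement genes were mostly higher. Of 13 tested, the C1q genes included, 10 were higher and 2 lower in Ex3a OVX, against 29.3% and 26.1% of all genes. The anaphylatoxin receptor C3ar1 had 227 and 227 FPKM in Ex3a OVX, against 47 and 46.7 FPKM in ERKO OVX (2.25 ± 0.07), and C5ar1 rose by 1.25 ± 0.08. C1s1, a serine protease that works with C1q, was lower (-0.71 ± 0.08). The regulator Cfb did not pass the test (-0.02 ± 0.04).

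Of 15 tested genes for the uptake of dying cells, 8 were higher and 2 lower, against 29.3% and 26.1% of all genes. The TAM kinase Axl had 108 and 108 FPKM in Ex3a OVX, against 38.8 and 38.2 FPKM in ERKO OVX (1.46 ± 0.05), and Mertk rose by 1.47 ± 0.08, while the other TAM kinase, Tyro3, was lower (-0.67 ± 0.09), as was the scavenger receptor Cd36 (-0.34 ± 0.04). Stab1, a receptor of phosphatidylserine, had 11.9 and 11.9 FPKM in Ex3a OVX, against 2.96 and 2.94 FPKM in ERKO OVX. The bridging protein Gas6 rose by 0.86 ± 0.10, while Mfge8 (0.04 ± 0.03) and Pros1 (0.07 ± 0.07) did not pass. Among 10 scavenger receptors and macrophage surface proteins, 4 were higher and 4 lower. Msr1, the class A scavenger receptor, had 500.1 and 501 FPKM in Ex3a OVX, against 156 and 157 FPKM in ERKO OVX (1.67 ± 0.05). Siglec1, the sialic acid receptor CD169, had 48.8 and 49.1 FPKM in Ex3a OVX, against 12 and 11.8 FPKM in ERKO OVX (1.96 ± 0.06). The mannose receptor Mrc1 had 40.8 and 40.3 FPKM in Ex3a OVX, against 10.4 and 11 FPKM in ERKO OVX (1.83 ± 0.06). The lower ones were Cd14, Marco (-0.40 ± 0.06), Scarb1 (-0.40 ± 0.04) and Cd5l, a soluble scavenger protein of macrophages (-1.19 ± 0.08).

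Fc receptors and their partners were mostly higher. Of 8 tested, 6 rose and 2 fell. Fcgr1, the high-affinity receptor of IgG, had 163 and 165 FPKM in Ex3a OVX, against 26.5 and 26.6 FPKM in ERKO OVX (2.58 ± 0.11, limma adjusted p = 5.50e-08). Fcgr4 had 149 and 152 FPKM in Ex3a OVX, against 35.6 and 34.8 FPKM in ERKO OVX (2.06 ± 0.07). The inhibitory receptor Fcgr2b was lower, by a small amount (-0.11 ± 0.03), as was the kinase Syk (-0.25 ± 0.03). In the Cd300 and Trem families, 5 of 12 were higher and 4 lower. Trem2, a lipid-sensing receptor of macrophages and microglia, had 303 and 314 FPKM in Ex3a OVX, against 70.2 and 70.8 FPKM in ERKO OVX (2.11 ± 0.05), and its adaptor Tyrobp rose by 0.79 ± 0.04. Treml4 went the other way, with 4.46 and 4.16 FPKM in Ex3a OVX, against 12.9 and 10.6 FPKM in ERKO OVX.

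Maf, a transcription factor of macrophages, had 48.2 and 46.6 FPKM in Ex3a OVX, against 11.3 and 10.7 FPKM in ERKO OVX (2.01 ± 0.09). The liver X receptor Nr1h3, a sensor of oxysterols, had 66.1 and 67.4 FPKM in Ex3a OVX, against 21.9 and 21 FPKM in ERKO OVX (1.59 ± 0.07). Apoe, a known target of that receptor, was nearly absent, at 1.14 and 1.66 FPKM in Ex3a OVX and 0.404 and 0.429 FPKM in ERKO OVX, whereas the lipid transfer protein Pltp had 90.1 and 90.5 FPKM in Ex3a OVX, against 39.9 and 39.8 FPKM in ERKO OVX (1.16 ± 0.04). Of 19 tested genes of lipid uptake and storage, 13 were higher and 4 lower.

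The Ms4a genes, tetraspanning membrane proteins of myeloid and lymphoid cells, were looked at after their values were seen. Of 8 tested, 6 were higher and 2 lower in Ex3a OVX. Ms4a4c had 141 and 136 FPKM in Ex3a OVX, against 9.43 and 8.97 FPKM in ERKO OVX (3.77 ± 0.07), and Ms4a6b had 179 and 179 FPKM in Ex3a OVX, against 28.8 and 28.1 FPKM in ERKO OVX (2.61 ± 0.06). Both libraries of Ex3a OVX were far above both of ERKO OVX. In unoperated vehicle libraries Ms4a4c was near 0, with 0.463 and 0.565 FPKM in KO and 0.939 and 0.901 FPKM in WT. The 2 lower members, Ms4a2 (-0.71 ± 0.08) and Ms4a3 (-0.64 ± 0.08), are genes of mast cells and basophils and of granulocyte precursors.

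Chemokines went both ways. Of 22 tested, 7 were higher and 9 lower in Ex3a OVX. Ccl12 and Ccl7, ligands of the monocyte receptor Ccr2, rose most. Ccl12 had 79.4 and 77.4 FPKM in Ex3a OVX, against 3.01 and 2.93 FPKM in ERKO OVX (4.32 ± 0.19), Ccl7 had 351 and 354 FPKM in Ex3a OVX, against 17.3 and 18.7 FPKM in ERKO OVX (4.22 ± 0.06), and Ccl2, also a ligand of Ccr2, had 599 and 596 FPKM in Ex3a OVX, against 134 and 131 FPKM in ERKO OVX (2.17 ± 0.04). Ccr2 itself was low and rose as well, with 10.6 and 10.2 FPKM in Ex3a OVX, against 2.45 and 2.14 FPKM in ERKO OVX (1.79 ± 0.12). The platelet-factor gene Pf4, also made by macrophages, had 795 and 790.1 FPKM in Ex3a OVX, against 62.9 and 66.5 FPKM in ERKO OVX (3.60 ± 0.04, limma adjusted p = 3.53e-11). The lymphotactin gene Xcl1 had 11.8 and 9.41 FPKM in Ex3a OVX, against 0.591 and 1.04 FPKM in ERKO OVX (2.68 ± 0.20). Among the ligands of Cxcr3, which draw T cells and are induced by interferon, Cxcl10 had 205 and 202 FPKM in Ex3a OVX, against 42.1 and 35.8 FPKM in ERKO OVX and Cxcl11 had 6.58 and 5.43 FPKM in Ex3a OVX, against 0.647 and 0.513 FPKM in ERKO OVX, with changes of 2.36 ± 0.19 and 2.15 ± 0.09. Cxcl9 rose by only 0.42 ± 0.08.

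The chemokines of the lower side included the ligands of Ccr4, which are induced by IL-4 in dendritic cells. Ccl17 had 346 and 352 FPKM in Ex3a OVX, against 1742 and 1696 FPKM in ERKO OVX (-2.30 ± 0.05, limma adjusted p = 4.33e-10). Ccl22 had 1573 and 1568 FPKM in Ex3a OVX, against 6497 and 6504 FPKM in ERKO OVX (-2.05 ± 0.05). The neutrophil chemokines Cxcl5 (2.96 and 1.92 FPKM in Ex3a OVX and 8.6 and 8.78 FPKM in ERKO OVX) and Cxcl3 (294 and 305 FPKM in Ex3a OVX and 664 and 657 FPKM in ERKO OVX) were lower as well, with changes of -1.51 ± 0.07 and -1.14 ± 0.05. Ccl3, Ccl4 and Ccl5 did not pass the test, with changes of -0.16 ± 0.08, 0.26 ± 0.15 and 0.06 ± 0.06.

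Interferon-stimulated genes were higher nearly throughout. Of 30 antiviral genes tested, 29 were higher and 0 lower in Ex3a OVX, with a median change of 0.78. Ifit2, which blocks translation of viral RNA, had 188 and 192 FPKM in Ex3a OVX, against 49.2 and 49.4 FPKM in ERKO OVX (1.93 ± 0.06, limma adjusted p = 7.98e-09). Ifit3 had 252 and 252 FPKM in Ex3a OVX, against 80.8 and 80.2 FPKM in ERKO OVX (1.63 ± 0.05). Ifi44 had 102 and 103 FPKM in Ex3a OVX, against 38.2 and 36.7 FPKM in ERKO OVX (1.43 ± 0.04), and Oasl1 had 293 and 295 FPKM in Ex3a OVX, against 121 and 121 FPKM in ERKO OVX (1.28 ± 0.04). Irf7, the transcription factor that drives type I interferon production, had 745 and 753 FPKM in Ex3a OVX, against 410.1 and 410.3 FPKM in ERKO OVX (0.87 ± 0.03). In each of these the Ex3a OVX libraries lay above the ERKO OVX libraries with no overlap, as in 82.2% of all genes tested. Eif2ak2, the RNA-dependent kinase PKR, did not pass (0.02 ± 0.05). The interferon gene Ifnb1 was low and was higher in Ex3a OVX, with 2.52 and 2.85 FPKM in Ex3a OVX, against 0.33 and 0.128 FPKM in ERKO OVX (1.59 ± 0.10).

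The interferon-induced GTPases, which act on vacuoles that hold pathogens, had 13 of 14 members higher and 0 lower (median 0.84). Iigp1 had 89.6 and 90.7 FPKM in Ex3a OVX, against 18.4 and 16.4 FPKM in ERKO OVX (2.31 ± 0.07), and Tgtp1 had 28.8 and 29.5 FPKM in Ex3a OVX, against 5.23 and 5.54 FPKM in ERKO OVX (2.24 ± 0.07). Gbp11, outside the list, had 22 and 23 FPKM in Ex3a OVX, against 1.24 and 1.57 FPKM in ERKO OVX (3.29 ± 0.09). Gbp2 did not pass (0.14 ± 0.06). Genes of close families, as these GTPases are, may share reads, and how such reads were counted is not stated in the labels. Among 7 HIN-200 genes, which encode sensors of DNA and were chosen after their values were seen, 6 were higher, led by Ifi205 with 46.9 and 45.6 FPKM in Ex3a OVX, against 14 and 13.2 FPKM in ERKO OVX. The DNA sensor Aim2 of that family did not pass (0.02 ± 0.06).

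Promoter windows of RefSeq (GRCm38.p6, 250 bases before to 50 after each start) were searched on both strands for the core of the interferon-stimulated response element, GAAANNGAAA. Windows were found for 21 of the 30 antiviral genes. Of their 25 windows 56.0% held a match, against 3.22% of 11000 windows of all genes tested. The GTPase list had a match in 9 of 10 windows. Of 252 windows of genes higher by over 2-fold 11.5% held one, and of 235 windows of genes lower by over 2-fold 1.7%. The shares describe letters in the windows only. Ifit3 (chr19:34583279-34583528, plus strand) and Rsad2 (chr12:26456453-26456702, minus strand; 1.45 ± 0.08) are shown to give the motif in its place, with matches in capitals.
Ifit3: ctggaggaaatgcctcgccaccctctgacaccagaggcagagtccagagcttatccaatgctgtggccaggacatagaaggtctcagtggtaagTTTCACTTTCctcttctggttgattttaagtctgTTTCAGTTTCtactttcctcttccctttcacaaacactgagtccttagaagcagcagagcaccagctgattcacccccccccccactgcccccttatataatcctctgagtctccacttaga
Rsad2: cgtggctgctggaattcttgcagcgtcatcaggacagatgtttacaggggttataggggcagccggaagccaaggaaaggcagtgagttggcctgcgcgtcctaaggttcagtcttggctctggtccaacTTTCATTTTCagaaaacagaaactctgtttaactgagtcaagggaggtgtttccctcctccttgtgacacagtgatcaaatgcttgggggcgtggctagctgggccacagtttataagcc

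Antigen presentation genes were higher by smaller amounts. Of 15 class I genes, 14 rose and 0 fell, among them the heavy chain H2-K1 with 2559 and 2563 FPKM in Ex3a OVX, against 1564 and 1561 FPKM in ERKO OVX (0.71 ± 0.03) and the peptide transporter Tap1 with 172 and 170.2 FPKM in Ex3a OVX, against 109 and 106 FPKM in ERKO OVX (0.67 ± 0.04). Heavy chain genes are close copies of one another, so their split is uncertain. Of 11 class II genes, 7 rose and 2 fell. H2-Ab1 had 1947 and 1938 FPKM in Ex3a OVX, against 1379.6 and 1357 FPKM in ERKO OVX (0.50 ± 0.04), and the transactivator Ciita was lower (-0.24 ± 0.04). Lysosomal proteases cut antigen and invariant chain. Their list, which also holds the inhibitors Cst3 and Cst7 and the membrane proteins Lamp1 and Lamp2, had 12 of 16 higher and 3 lower. Cathepsin L (Ctsl) had 3435 and 3445 FPKM in Ex3a OVX, against 1517 and 1515 FPKM in ERKO OVX (1.18 ± 0.04), and legumain (Lgmn) had 429 and 433 FPKM in Ex3a OVX, against 177 and 177 FPKM in ERKO OVX (1.28 ± 0.03). Cathepsin K (Ctsk), an osteoclast protease, went the other way with 34.4 and 35.9 FPKM in Ex3a OVX, against 92.2 and 91.2 FPKM in ERKO OVX (-1.36 ± 0.05).

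Toll-like receptors were also on the higher side, with 12 of 16 receptors and chaperones higher and 2 lower. Tlr9, the receptor of CpG DNA, had 22.8 and 23 FPKM in Ex3a OVX, against 7.13 and 7.51 FPKM in ERKO OVX (1.52 ± 0.05). Tlr7, the receptor of loxoribine, rose by 0.62 ± 0.05, and Unc93b1, which carries these receptors to endosomes, had 341 and 341 FPKM in Ex3a OVX, against 171 and 172 FPKM in ERKO OVX (0.99 ± 0.04). Cd14 and Hsp90b1 were the lower members. The signalling genes behind the receptors were divided, with 7 of 18 higher and 5 lower. The kinase gene Ikbke stood out with 82.7 and 84.2 FPKM in Ex3a OVX, against 28.8 and 29 FPKM in ERKO OVX (1.50 ± 0.03), and the adaptor Myd88 rose by 0.36 ± 0.05. NF-kB subunits and feedback genes had 6 of 18 higher and 10 lower, none by over 2-fold.

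**Figure D3:**
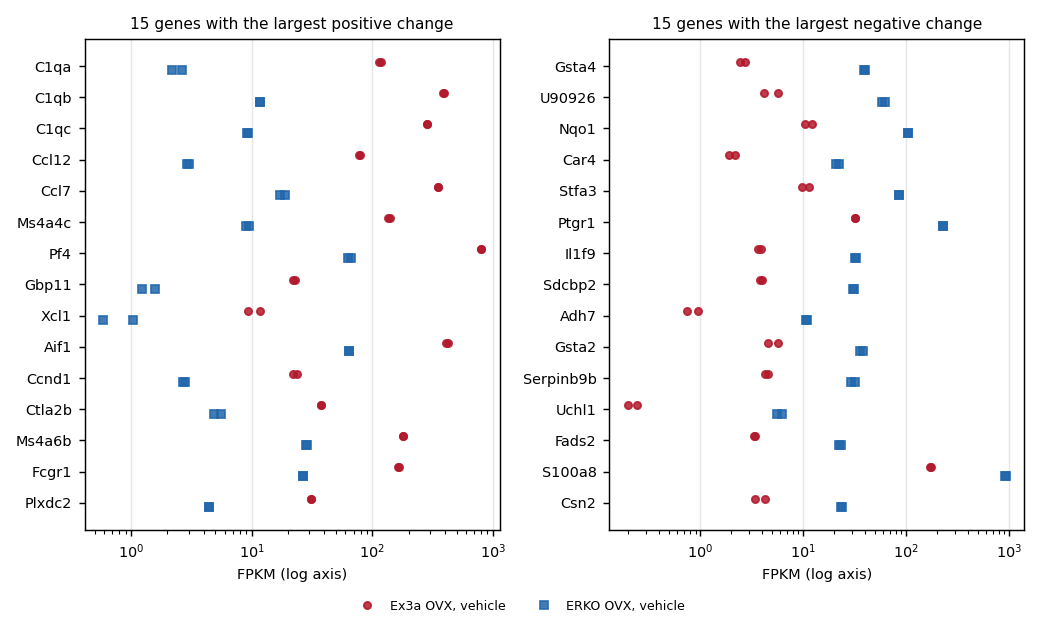
FPKM on a log axis in each vehicle library of Ex3a OVX (red circles) and ERKO OVX (blue squares) for the 15 genes with the largest positive change (left) and the 15 with the largest negative change (right) among genes past the test, with a mean of 5 FPKM or more in the higher group and a symbol that is not of a predicted gene. The pairs of a group lie close together, and the groups do not overlap in these 30 genes, which were chosen for their wide changes; over all genes tested 82.2% do not overlap.

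The genes lower in Ex3a OVX opened with enzymes that detoxify reactive chemicals. Nqo1, a quinone reductase, had 10.3 and 12.2 FPKM in Ex3a OVX, against 104 and 105 FPKM in ERKO OVX (-3.10 ± 0.04, limma adjusted p = 6.62e-11). Gsta4, a transferase of glutathione onto lipid aldehydes, had 2.43 and 2.72 FPKM in Ex3a OVX, against 39.6 and 38.9 FPKM in ERKO OVX (-3.50 ± 0.12). Gsta2, of the same family, had 5.75 and 4.6 FPKM in Ex3a OVX, against 35.5 and 38.2 FPKM in ERKO OVX (-2.62 ± 0.17). The reductase Ptgr1, which inactivates leukotriene B4 and related lipids, had 31.6 and 31.7 FPKM in Ex3a OVX, against 229.6 and 228 FPKM in ERKO OVX (-2.82 ± 0.03). Adh7, an alcohol dehydrogenase that also acts on retinol, had 0.942 and 0.736 FPKM in Ex3a OVX, against 10.8 and 10.6 FPKM in ERKO OVX (-2.67 ± 0.10). Nqo1 was 9.25 times as high in ERKO OVX as in Ex3a OVX in mean FPKM.

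Most of these are known targets of NRF2, the factor encoded by Nfe2l2 that is released when KEAP1 senses electrophiles. Of 16 tested genes of a list of NRF2 targets, 14 were lower and 2 higher in Ex3a OVX, and 10 were lower by over 2-fold (median -1.0). The peroxidase Prdx1 had 2272 and 2285 FPKM in Ex3a OVX, against 6473 and 6454 FPKM in ERKO OVX (-1.50 ± 0.03). Srxn1, which repairs peroxiredoxins, had 64.5 and 62.3 FPKM in Ex3a OVX, against 223 and 224 FPKM in ERKO OVX (-1.80 ± 0.03). The subunits of the ligase that starts glutathione synthesis, Gclc (10.9 and 10.5 FPKM in Ex3a OVX and 33.6 and 33.6 FPKM in ERKO OVX) and Gclm (37.6 and 38 FPKM in Ex3a OVX and 119.6 and 117 FPKM in ERKO OVX), changed by -1.56 ± 0.04 and -1.62 ± 0.05. The heme oxygenase Hmox1 had 706 and 699 FPKM in Ex3a OVX, against 1425 and 1427 FPKM in ERKO OVX (-1.02 ± 0.03). Nfe2l2 itself was higher, with 178 and 179 FPKM in Ex3a OVX, against 136 and 135 FPKM in ERKO OVX (0.40 ± 0.05), as was the superoxide dismutase Sod2 (0.19 ± 0.05). Of 20 tested glutathione S-transferases, a family chosen after its values were seen, 12 were lower and 3 higher. The higher ones included Gstt1, with 9.28 and 8.35 FPKM in Ex3a OVX, against 2.38 and 2.14 FPKM in ERKO OVX. The 3 tested metallothioneins, metal-binding proteins chosen the same way, were all lower by over 2-fold, as in Mt1 with 457 and 463 FPKM in Ex3a OVX, against 1368 and 1370.3 FPKM in ERKO OVX.

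The core of the antioxidant response element, searched as TGACNNNGC on both strands, was in 47.1% of 17 windows of 13 genes of the NRF2 list, against 14.6% of the windows of all genes tested. Of windows of genes lower by over 2-fold 16.2% held it, and of windows of genes higher by over 2-fold 11.5%. Windows of Gclm (chr3:122245307-122245556, plus strand) and Txnrd1 (chr10:82858956-82859205, plus strand; -1.31 ± 0.04) are given with the match in capitals, as examples of lower genes that hold it.
Gclm: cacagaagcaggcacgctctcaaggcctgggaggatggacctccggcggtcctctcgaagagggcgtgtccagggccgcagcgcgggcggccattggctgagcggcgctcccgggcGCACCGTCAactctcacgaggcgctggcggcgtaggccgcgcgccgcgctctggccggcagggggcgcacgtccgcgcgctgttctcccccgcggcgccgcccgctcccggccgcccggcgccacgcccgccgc
Txnrd1: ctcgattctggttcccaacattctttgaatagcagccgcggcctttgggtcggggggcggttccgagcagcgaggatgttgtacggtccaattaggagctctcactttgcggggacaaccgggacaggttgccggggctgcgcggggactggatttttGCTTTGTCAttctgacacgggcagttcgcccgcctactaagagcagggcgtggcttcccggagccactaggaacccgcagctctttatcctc

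Sterol and fatty acid synthesis was lower without exception in the list, with 22 of 22 tested genes lower and 10 of them by over 2-fold (median -0.94). Cyp51, which removes a methyl group from lanosterol, had 6.99 and 6.45 FPKM in Ex3a OVX, against 22.7 and 23.1 FPKM in ERKO OVX (-1.63 ± 0.05, limma adjusted p = 4.48e-09). Sqle, the squalene epoxidase, had 11.4 and 10.7 FPKM in Ex3a OVX, against 32.8 and 30.9 FPKM in ERKO OVX (-1.45 ± 0.05), and Fdps, which makes farnesyl diphosphate, had 30 and 29.3 FPKM in Ex3a OVX, against 78.2 and 79.2 FPKM in ERKO OVX (-1.38 ± 0.04). The smallest change in the list was that of Srebf1 (-0.15 ± 0.04). Outside the list, Fads2, the desaturase that opens the synthesis of long polyunsaturated fatty acids, had 3.43 and 3.32 FPKM in Ex3a OVX, against 23.1 and 22.5 FPKM in ERKO OVX (-2.44 ± 0.09). The sterol regulatory element, searched as TCACNCCAC, was in 1 of 18 windows of the list, that of Hmgcs1 (chr13:119690101-119690350, plus strand; -0.92 ± 0.04), against 1.15% of all windows of genes tested. It is shown with the match in capitals.
Hmgcs1: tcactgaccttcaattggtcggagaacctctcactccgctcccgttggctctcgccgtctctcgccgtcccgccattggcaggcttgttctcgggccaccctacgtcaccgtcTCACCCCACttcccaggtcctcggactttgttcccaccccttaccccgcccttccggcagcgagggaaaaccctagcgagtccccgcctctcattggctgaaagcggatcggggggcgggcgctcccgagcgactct

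Glycolysis and hypoxia genes were lower in 17 of 20 and higher in 3 (median -0.68). The enolase Eno1 had 457 and 445 FPKM in Ex3a OVX, against 838 and 833 FPKM in ERKO OVX (-0.89 ± 0.03), and the lactate carrier Slc16a3 had 98.1 and 97.6 FPKM in Ex3a OVX, against 179 and 173 FPKM in ERKO OVX (-0.84 ± 0.03). Egln3, an oxygen sensor that is itself induced by hypoxia, had the widest change, with 2.78 and 2.56 FPKM in Ex3a OVX, against 16.1 and 16.4 FPKM in ERKO OVX (-2.23 ± 0.08). Hif1a was slightly higher (0.27 ± 0.05), and so were Hk2 (0.19 ± 0.05) and Vegfa (0.35 ± 0.07). Respiratory chain and ATP synthase genes had 12 of 25 lower and 3 higher, none by over 2-fold, and Atp5b had 671 and 672 FPKM in Ex3a OVX, against 787 and 785 FPKM in ERKO OVX.

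IL-4 response genes were lower in 12 of 18 and higher in 6, with 9 lower by over 2-fold. Chil3 had 1296 and 1297 FPKM in Ex3a OVX, against 3812 and 3810.0 FPKM in ERKO OVX (-1.55 ± 0.03), and Irf4, a transcription factor of IL-4 responses and dendritic cell development, had 8.63 and 8.73 FPKM in Ex3a OVX, against 26.7 and 26 FPKM in ERKO OVX (-1.50 ± 0.04, limma adjusted p = 1.80e-09). Retnla was low, at 0.278 and 0.271 FPKM in Ex3a OVX and 2.95 and 1.88 FPKM in ERKO OVX (-1.40 ± 0.05). Members on the higher side included Mrc1, the lectin Clec10a (5.38 and 4.84 FPKM in Ex3a OVX and 1.5 and 1.77 FPKM in ERKO OVX) and Arg1 (2.57 and 3.01 FPKM in Ex3a OVX and 1.61 and 1.48 FPKM in ERKO OVX), so the list did not move as a block. The lectin Mgl2, a close copy of Clec10a, was lower, with 38.3 and 40.2 FPKM in Ex3a OVX, against 99.3 and 96.6 FPKM in ERKO OVX.

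Genes of dendritic cell maturation were lower in 11 of 16 and higher in 5. The lymph node homing receptor Ccr7 had 205 and 209 FPKM in Ex3a OVX, against 508 and 503 FPKM in ERKO OVX (-1.28 ± 0.04). Cd40, a receptor for T cell help, had 72.4 and 72.2 FPKM in Ex3a OVX, against 148 and 149 FPKM in ERKO OVX (-1.03 ± 0.06). Tnfsf4, the ligand OX40L, had 34.9 and 35.4 FPKM in Ex3a OVX, against 74.8 and 74.3 FPKM in ERKO OVX (-1.06 ± 0.05), and the actin bundler Fscn1 had 212 and 211 FPKM in Ex3a OVX, against 407 and 401 FPKM in ERKO OVX (-0.93 ± 0.04). The inhibitory ligand Cd274 stood higher, with 217 and 215 FPKM in Ex3a OVX, against 122 and 124 FPKM in ERKO OVX (0.81 ± 0.03), as did Icosl (0.82 ± 0.04) and Cd86 (0.28 ± 0.04).

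Among cytokines 12 of 24 were higher and 7 lower. Il12b, the subunit shared by interleukins 12 and 23, had 44.8 and 44.9 FPKM in Ex3a OVX, against 196 and 196 FPKM in ERKO OVX (-2.10 ± 0.05, limma adjusted p = 2.24e-09). Il23a, its partner in interleukin 23, had 0.671 and 0.852 FPKM in Ex3a OVX, against 4.21 and 5.07 FPKM in ERKO OVX (-1.68 ± 0.13). Il1b had 365 and 367 FPKM in Ex3a OVX, against 912 and 908 FPKM in ERKO OVX (-1.31 ± 0.21), and Il6 had 48.9 and 44.7 FPKM in Ex3a OVX, against 86.5 and 87.2 FPKM in ERKO OVX (-0.88 ± 0.07). Tnf did not pass (90.4 and 93.1 FPKM in Ex3a OVX and 97.6 and 95.8 FPKM in ERKO OVX, -0.08 ± 0.29). Higher cytokines were Il27 (5.42 and 6.24 FPKM in Ex3a OVX and 2.14 and 1.72 FPKM in ERKO OVX), Il18 (14.7 and 13 FPKM in Ex3a OVX and 6.77 and 8.03 FPKM in ERKO OVX) and Igf1 (78.9 and 77.6 FPKM in Ex3a OVX and 48.6 and 48.3 FPKM in ERKO OVX). Il1f9, the interleukin 36γ gene, had 3.65 and 3.88 FPKM in Ex3a OVX, against 32.5 and 31.6 FPKM in ERKO OVX (-2.79 ± 0.06). The nitric oxide synthase Nos2 had 69.8 and 67.5 FPKM in Ex3a OVX, against 265 and 259 FPKM in ERKO OVX (-1.92 ± 0.06), and Irg1, which makes itaconate, had 556 and 554 FPKM in Ex3a OVX, against 1255 and 1249 FPKM in ERKO OVX (-1.17 ± 0.06).

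Some of the widest falls were in S100a8 and the stefin genes, which are granulocyte markers. S100a8, a subunit of calprotectin, had 171 and 175 FPKM in Ex3a OVX, against 924 and 926 FPKM in ERKO OVX (-2.41 ± 0.16). Its partner S100a9 had 59.2 and 57.3 FPKM in Ex3a OVX, against 292 and 289 FPKM in ERKO OVX, but its error from the unoperated libraries was wide and it did not pass (-2.30 ± 0.80, limma adjusted p = 0.0714). The stefin Stfa3 had 11.5 and 9.82 FPKM in Ex3a OVX, against 84.7 and 86.2 FPKM in ERKO OVX (-2.89 ± 0.06), and its copies in the family may share reads with it. The carbonic anhydrase Car4 had 2.15 and 1.9 FPKM in Ex3a OVX, against 20.9 and 22.2 FPKM in ERKO OVX (-2.90 ± 0.06). Csn2, a casein gene of the mammary gland, had 4.29 and 3.41 FPKM in Ex3a OVX, against 23.6 and 23.9 FPKM in ERKO OVX (-2.36 ± 0.11), and it was near 0 in the unoperated vehicle libraries, at 0.144 and 0.0481 FPKM in KO and 0.157 and 0 FPKM in WT. The granulocyte marker list holds S100a8, S100a9 and the stefins. Its 11 other members tested had 5 lower and 4 higher, summing to 2080 and 2070 FPKM in Ex3a OVX and 5060 FPKM in each ERKO OVX library, Chil3 for the most part. The part of such cells was not tested. The serpin Serpinb9b, an inhibitor of the granzyme B class, had 4.25 and 4.57 FPKM in Ex3a OVX, against 29.5 and 31.7 FPKM in ERKO OVX (-2.55 ± 0.05). Of 13 tested clade B serpins, a family chosen after its values were seen, 9 were lower and 3 higher. The remaining genes with the widest falls were U90926, a gene of no assured function (5.73 and 4.17 FPKM in Ex3a OVX and 62.2 and 58.8 FPKM in ERKO OVX), the scaffold gene Sdcbp2 (3.84 and 3.94 FPKM in Ex3a OVX and 31.3 and 30.6 FPKM in ERKO OVX) and the ubiquitin hydrolase Uchl1 (0.245 and 0.199 FPKM in Ex3a OVX and 5.61 and 6.29 FPKM in ERKO OVX).

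Granzymes, the proteases of cytotoxic granules, were on the higher side and were also chosen after their values were seen. All 7 tested were higher in Ex3a OVX, 6 by over 2-fold, as in Gzmb with 31.5 and 35 FPKM in Ex3a OVX, against 13.2 and 13.4 FPKM in ERKO OVX and Gzmc with 39.5 and 39.5 FPKM in Ex3a OVX, against 13.5 and 13.4 FPKM in ERKO OVX. With a pseudocount of 0.1 Gzmb did not pass the test (1.31, limma adjusted p = 0.178). The T and NK cell marker list holds Gzma and Gzmb. Its other 9 members tested had 6 higher and 3 lower, with summed levels of 107 and 109 FPKM in Ex3a OVX and 117 and 118 FPKM in ERKO OVX. Among these, the receptor subunits Cd3g (1.42 ± 0.08) and Cd3d (0.90 ± 0.08) were higher, and Cd247 (-0.64 ± 0.11), Thy1 (-0.86 ± 0.12) and Il7r (-0.22 ± 0.04) lower. The part of such cells was not tested. Other leading genes of the higher side were the actin-binding macrophage protein Aif1 (421 and 407 FPKM in Ex3a OVX and 64.5 and 64.1 FPKM in ERKO OVX), the cyclin Ccnd1 (23.6 and 21.8 FPKM in Ex3a OVX and 2.81 and 2.71 FPKM in ERKO OVX), the cysteine protease inhibitor Ctla2b (37.9 and 37.2 FPKM in Ex3a OVX and 5.53 and 4.83 FPKM in ERKO OVX) and the plexin-domain receptor Plxdc2 (31 and 31 FPKM in Ex3a OVX and 4.39 and 4.44 FPKM in ERKO OVX).

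Genes known to respond to estrogen in breast and uterus had 9 of 14 higher and 2 lower in Ex3a OVX (median 0.34). Over all genes tested 29.3% were higher and 26.1% lower. Ccnd1 led the estrogen list (2.66 ± 0.07), followed by Myc (0.80 ± 0.06) and Igf1 (0.68 ± 0.05). The prostaglandin synthase Ptges (-0.63 ± 0.08) and Tff1 (-0.73 ± 0.13) were lower, and Tff1 was at 0.512 and 1.25 FPKM in Ex3a OVX and 2.04 and 2.11 FPKM in ERKO OVX. Greb1 and Pgr, classic targets of the receptor, were under the filter, with Greb1 at 0.0104 and 0.0102 FPKM in Ex3a OVX and 0.0104 and 0.0152 FPKM in ERKO OVX and Pgr at 0 and 0 FPKM in Ex3a OVX and 0 and 0 FPKM in ERKO OVX. The full estrogen response element, GGTCANNNTGACC, was in 0 of 11000 promoter windows of genes tested and in 23 of 32851 windows of all genes. Its right end shares the letters TGAC with the antioxidant motif.

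Most of the remaining lists were divided or moved by small amounts. Their counts stand beside 29.3% higher and 26.1% lower over all genes tested. DNA replication and mitosis genes had 6 of 30 higher, 6 lower and 18 not called, with Mki67 at 4.88 and 5.15 FPKM in Ex3a OVX and 7.23 and 7.32 FPKM in ERKO OVX. Nuclear receptors had 6 of 17 higher and 6 lower, immediate early factors 6 of 16 higher and 6 lower, and matrix metalloproteinases with their inhibitors 7 of 14 each way. In that last list Mmp19 had 31.9 and 31 FPKM in Ex3a OVX, against 119.9 and 121 FPKM in ERKO OVX (-1.90 ± 0.06), and Mmp9 had 15.7 and 15.7 FPKM in Ex3a OVX, against 6.86 and 7.1 FPKM in ERKO OVX (1.06 ± 0.05).

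Ribosomal protein genes had 19 of 30 higher and 1 lower, with a median of only 0.14. Iron handling genes had 7 of 12 lower and 3 higher, C-type lectin receptors 7 of 13 higher and 4 lower, and retinoic acid genes 2 of 8 higher and 3 lower. Arginine, itaconate and tryptophan enzymes had 7 of 14 higher and 5 lower. Prostaglandin and leukotriene enzymes had 4 of 11 higher and 2 lower, and among them the cyclooxygenase Ptgs1 had 68.2 and 70.4 FPKM in Ex3a OVX, against 15 and 14.9 FPKM in ERKO OVX (2.14 ± 0.07). Chemokine receptors had 7 of 10 higher and 1 lower (median 0.5). Growth factor and cytokine receptors had 15 of 24 higher and 6 lower (median 0.33), and adenosine and purine genes 12 of 15 higher and 2 lower (median 0.68). In the last of these, the purine receptor P2ry13 had 43 and 43.1 FPKM in Ex3a OVX, against 9.79 and 9.13 FPKM in ERKO OVX (2.07 ± 0.08), and the ectonucleotidase Nt5e had 2.36 and 2.25 FPKM in Ex3a OVX, against 8.5 and 8.09 FPKM in ERKO OVX (-1.49 ± 0.09).

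**Figure D4:**
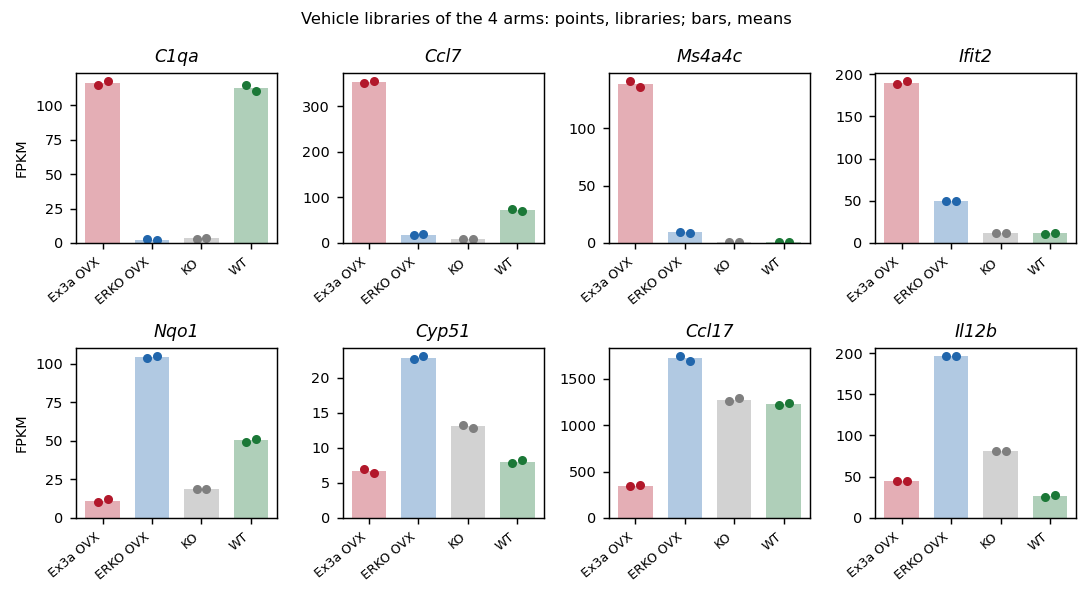
FPKM of 8 genes in the vehicle libraries of Ex3a OVX, ERKO OVX, unoperated KO and unoperated WT; points are libraries and bars are means of 2. C1qa is high in Ex3a OVX and WT and near 0 in ERKO OVX and KO, whereas Ms4a4c is high in Ex3a OVX and near 0 in the unoperated groups.

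Beside the unoperated vehicle libraries, the changed genes fell into different patterns, given here as levels with no test because surgery differs too. C1qa was at 3.09 and 3.45 FPKM in KO and 115 and 110.3 FPKM in WT, so Ex3a OVX stood near WT and ERKO OVX near KO. Pf4 was ordered alike, with 88.2 and 91.1 FPKM in KO and 624 and 625 FPKM in WT. Ccl7 had 8.03 and 8.6 FPKM in KO and 74 and 70 FPKM in WT, both below Ex3a OVX. Nqo1 had 18.5 and 18.9 FPKM in KO and 49.4 and 51.5 FPKM in WT, between the ovariectomized groups. Ifit2 was low in both unoperated groups, at 12.2 and 12.1 FPKM in KO and 10.9 and 11.6 FPKM in WT. Ccl17 was high in both, at 1255 and 1291 FPKM in KO and 1218 and 1241 FPKM in WT, and so stood nearer ERKO OVX. Of the 278 genes higher by over 2-fold in Ex3a OVX, 67.3% had a lower mean in KO than in WT, against 48.2% of all genes tested. Of the 250 lower genes, 48.0% did.

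The same contrast in the agonist libraries shares no library with the vehicle contrast, but both rest on the same estimate of the spread. With agonists 312 genes were higher (2.75%) and 245 lower (2.16%) by over 2-fold. Of all 11346 genes tested, 7120 passed the test with agonists, and changes with vehicle and with agonists had a correlation of 0.828. Of the 278 genes higher with vehicle, 278 were higher with agonists, 275 of them past the test and 211 by over 2-fold. Of the 250 lower with vehicle, 249 were lower with agonists, 247 past the test and 177 by over 2-fold. Gm12238 was the exception. This predicted gene, chosen for its values, was at 0 and 0 FPKM in Ex3a OVX and 13.7 and 26.7 FPKM in ERKO OVX with vehicle and listed at 0 in every other library. C1qa had 86.6 and 81.6 FPKM in Ex3a OVX and 2.4 and 2.56 FPKM in ERKO OVX with agonists, and Nqo1 had 17.3 and 16.7 FPKM in Ex3a OVX and 91.3 and 92.9 FPKM in ERKO OVX.

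The size of the change depended on treatment for many genes. The interaction of arm and treatment passed the test for 3546 genes (31.3%), and for 252 of the 528 genes over 2-fold with vehicle. With the 16 libraries as separate samples 5534 genes passed it, and in the test against 1.5-fold 27 did. Of the 252 genes, 79 higher genes changed less with agonists and 47 more, and 105 lower genes changed less and 21 more. Il12b moved most among the cytokines named. With agonists it had 187 and 186 FPKM in Ex3a OVX and 262 and 261 FPKM in ERKO OVX, and its change of -0.48 was smaller than the -2.10 with vehicle (difference 1.62 ± 0.08, limma adjusted p = 1.12e-05). Ccr7 changed by -1.28 with vehicle and -0.64 with agonists (difference 0.64 ± 0.06), and Trem2 by 2.11 and 1.18 (difference -0.93 ± 0.07). C1qb (5.09 with agonists), Ifit2 (1.87), Nos2 (-1.92) and Iigp1 (2.34) had differences between treatments that did not pass the test. The respiratory chain list behaved otherwise: of its 15 genes called with vehicle, only 4 had the same direction with agonists, as in Sdhd with -0.21 and 0.20. Changes of that list were small, with a median of -0.11 with vehicle. Sums of FPKM with agonists were 696321 and 692566 in Ex3a OVX and 613251 and 612322 in ERKO OVX, a wider gap than with vehicle. The part of this gap in the reversed directions was not tested.

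**Figure D5:**
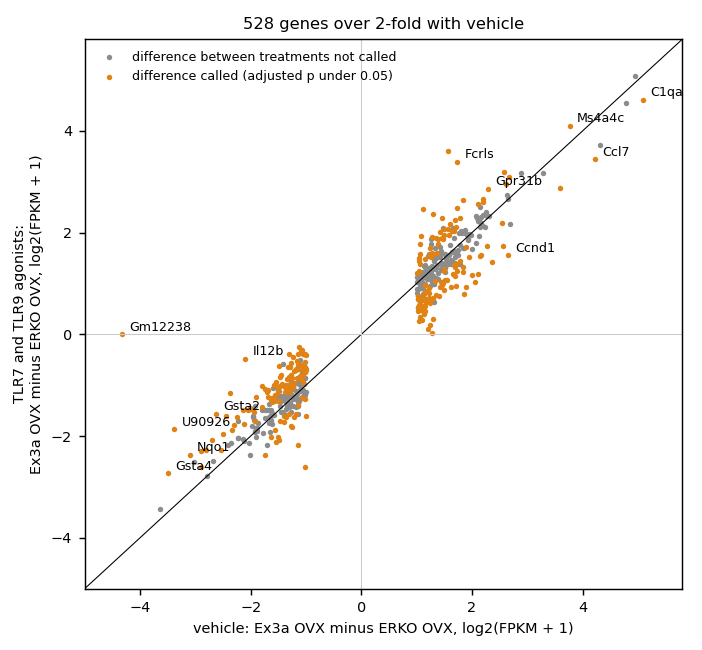
For the 528 genes over 2-fold with vehicle, the change of Ex3a OVX minus ERKO OVX with agonists (vertical axis) against that with vehicle (horizontal axis), both on the log2(FPKM + 1) scale; the line marks equal change. Orange points are the 252 genes whose change differed between treatments; Il12b and Ccnd1 lie nearer 0 with agonists than with vehicle, and Gm12238 lies at 0 there.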

How the data were processed

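RNA of marrow-derived dendritic cells was sequenced in 16 libraries, and per the labels the 4 vehicle libraries of Ex3a OVX and ERKO OVX form the comparison here. The authors deposited 1 table of FPKM per gene symbol, normalized for length and depth. Per the submitters' processing notes, the build was mm10 and the tools, given without versions, were STAR, HTSeq, DESeq2, cutadapt and FastQC. Which program made the FPKM is not given in the sources. An exact 0 can be a failed estimate: Actr3, Ccl22, Hnrnpd and Jak2 are listed at 0 in some other libraries, and these 5 values were treated as missing.

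From the table, 1238 small RNA rows were left out, as were genes under 1 FPKM in all but 1 library or in all. Values were tested as log2(FPKM + 1) with limma 3.58.1 in R 4.3.3 (a trend of variance on level, robust estimates, Benjamini and Hochberg's adjustment). Each OVX pair entered as 1 averaged sample, because its median chi-square was 0.909 to 1.16 times that of sampling noise, against 1.49 to 1.98 in unoperated pairs. All 12 samples shared 1 estimate of the spread. The fit was also run on simulated data. Noise of the simulated OVX groups was drawn from the spread of unoperated pairs, so that run cannot check this spread for OVX groups. Depth came from steps between values of low genes, where 50.2 to 54.8% of values lay within 0.1 of a whole fragment, too few to recover counts. That leaves counting error per gene unknown. Sums, levels and counts of genes were computed in Python 3.11.15 with pandas 2.3.3.

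Genes named are Esr1, the 15 widest changes each way at a mean of 5 FPKM or more in the higher group and not of predicted genes, the 4 smallest adjusted p-values of each list with 1 in the rarer direction, and markers at 5 FPKM or more. Others are named for their role and were chosen with their values known. The comparison, lists and families were chosen with earlier results of these data known. Alternatives tried were other pseudocounts, filters, scalings and sample sets, a replicate block and a test against 1.5-fold. Each library was also left out in turn, apart from the agonist libraries of the OVX groups. Gene positions are from GENCODE M21 on GRCm38, matched by symbol for 22673 of 24001 rows. Some genes of the lists are not reported here by name.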

Additional observations from a re-analysis of the deposited data

Results flagged for a closer look

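The test of the difference between treatments, agonists minus vehicle in the contrast of Ex3a OVX against ERKO OVX, passed for 3546 genes. The genotype labels of the ERKO OVX libraries differ between vehicle and agonists, so treatment and label cannot be told apart there. Among Esr1, the 30 leading genes and the genes named by list, 5 had differences of over 1 log2 unit that passed the test. Fcrls, an Fc receptor-like gene of macrophages and microglia, differed by 1.66, with changes of 3.40 with agonists and 1.74 with vehicle (limma adjusted p = 2.36e-04). Il12b differed by 1.62, with changes of -0.48 with agonists and -2.10 with vehicle (limma adjusted p = 1.12e-05). U90926 differed by 1.51, with -1.87 and -3.38 (limma adjusted p = 0.00837), and Gsta2 by 1.06, with -1.56 and -2.62 (limma adjusted p = 0.00932). Ccnd1 differed by -1.10, with 1.55 with agonists and 2.66 with vehicle (limma adjusted p = 1.19e-04). The direction with vehicle was kept with agonists in each of these 5 genes.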

How the results depend on the processing

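The number of genes called between Ex3a OVX and ERKO OVX with vehicle was 6279, and apart from the test against 1.5-fold it ranged from 5315 (only genes at 5 FPKM or more, 8675 tested) to 7533 (16 libraries as separate samples). The test against 1.5-fold, which asks for a larger change by construction, gave 807 genes called with vehicle, 857 with agonists and 27 for the difference between treatments. In that test Esr1 kept a change of -0.61 with an adjusted p of 1.0. The counts over 2-fold depended on the pseudocount, with 421 higher and 419 lower at 0.1 and 156 higher and 135 lower at 5. Of the 528 genes over 2-fold, 523 were called the same way at 0.1, 527 with values scaled to TPM, 521 in the test against 1.5-fold and 460 of the 460 tested at 5 FPKM or more. Of 98 counts of list members, 0 to 9 moved by over 1.5 times under each alternative but the test against 1.5-fold, where 74 did. Scaling to TPM gave 3025 higher and 3126 lower, so the larger side changed from the 3320 higher and 2959 lower reported. Each vehicle library of Ex3a OVX and ERKO OVX and each unoperated library was left out in turn. That gave 6141 to 6392 genes called, with 278 to 284 higher and 250 to 256 lower over 2-fold. With agonists 6976 to 7146 were called, and 3278 to 3691 for the difference. The agonist libraries of Ex3a OVX and ERKO OVX were not left out, so the ranges with agonists and for the difference do not cover them.

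Genes that differed between treatments numbered 3546, but 5534 with the 16 libraries as separate samples. They numbered 5502 when a replicate block was added to those 16 separate samples. Under the replicate block 7491 genes were called with vehicle and 8131 with agonists, against 7533 and 8145 with separate samples and no block. Between Ex3a OVX and ERKO OVX with vehicle, deviations of same-numbered libraries had a correlation of -0.0172. The other groups were not checked, so whether the replicate numbers pair libraries there is not known. The block moved these counts little beside the step from averaged to separate OVX libraries. Why separate libraries gave more calls was not tested. Among genes named by rule or held in a list, none that passed the test in either fit reversed its direction under any alternative. Depth of 22.7 to 23.4 M fragments limits low genes such as Esr1. Spread from unoperated mice, whose libraries had an estimated 36.4 to 43.6 M fragments, stands in for that of ovariectomized ones. With agonists the estimated depth was 17.7 and 18.1 M in Ex3a OVX and 22.3 and 23.1 M in ERKO OVX.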

Other observations

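Further families were looked at after their values were seen, so their counts are descriptions. All 7 tested Schlafen genes, growth regulators induced by interferon, were higher in Ex3a OVX, 1 of them by over 2-fold (median change 0.74). Of 7 tested Gimap GTPases, which are known from lymphocytes, 6 were higher and 0 lower (median 0.63). Ligands of the interleukin 1 family had 5 of 7 lower and 1 higher, 4 of them lower by over 2-fold (median -1.31). Collagens had 5 of 9 higher and 3 lower, with all 3 lower ones over 2-fold. Peroxiredoxins had 3 of 6 lower and 2 higher, and aldo-keto reductases 3 of 9 each way, so neither family moved as a whole.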
